A study of Mus musculus with 7 samples.

Results

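Immediate early genes are switched on within minutes of a signal such as serum, a growth factor, depolarisation or cell stress, without new protein synthesis. Serum response factor with its ternary complex partners, CREB and NF-kappaB act at their promoters, and most of their messages are short-lived, so that their level follows recent signalling. The 10 genes described here are the AP-1 subunit genes Fos, Jun, Junb and Atf3, the zinc-finger factor genes Egr1 and Klf6, Ier2, the AU-rich element binding protein genes Zfp36 and Zfp36l1, and Gadd45b, a stress- and growth factor-induced partner of MAP kinase kinases. They were chosen by name, with earlier results of these data known, and found by RefSeq transcript accession. All 10 of 10 were in the table, each with 1 row, out of 20290 genes, and all 10 passed the mean value of 1 that the tests required.

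Messenger RNA was sequenced from E14 mouse embryonic stem cells kept in 2i medium. They carried a GAVPO cassette, in which light switches on expression of Brn2 together with RFP. An LED of 300 µW lit them for 0, 2, 4, 6, 14, 24 or 48 h, and the 7 libraries are 1 for each time. The 0 h cells carry the cassette too and are labelled as unlit, and no library without the cassette or without Brn2 lit for the same time was analysed here, so light, time in culture and Brn2 cannot be told apart. Whether the line is 1 clone is not stated in the labels. The deposited values behave as reads per kilobase of genomic span, introns included, scaled to library size, and the depth they imply ran from about 7040000 reads (4 h) to 16100000 (48 h). No time point has a replicate, so each value below is 1 library.

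The row of the induced gene did not follow the labels. Brn2, listed as Pou3f2, a POU factor of neural progenitors, stood at 77.03 in the library labelled 0 h, then 36.9, 47.3, 96.2, 119, 41.3 and 7.19 in those labelled 2, 4, 6, 14, 24 and 48 h. This row was thus high in the library labelled as unlit, highest at 14 h and lowest in the library labelled 48 h. The sources used here do not say whether reads from the cassette are counted in it, and the cause of its order was not tested. Times below are those of the labels, so an early or late value says nothing of how much Brn2 was there. Calls and fitted trends of the members, and calls in the related lists, that moved without the library labelled 0 h or 48 h are given without it beside the result. For cell type markers no such fits are given.

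The members split into a set that was high from 2 to 6 h and low later (Fos, Atf3, Gadd45b), a pair that peaked at 14 h (Egr1, Junb), and others with neither pattern.

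**Figure D1:**
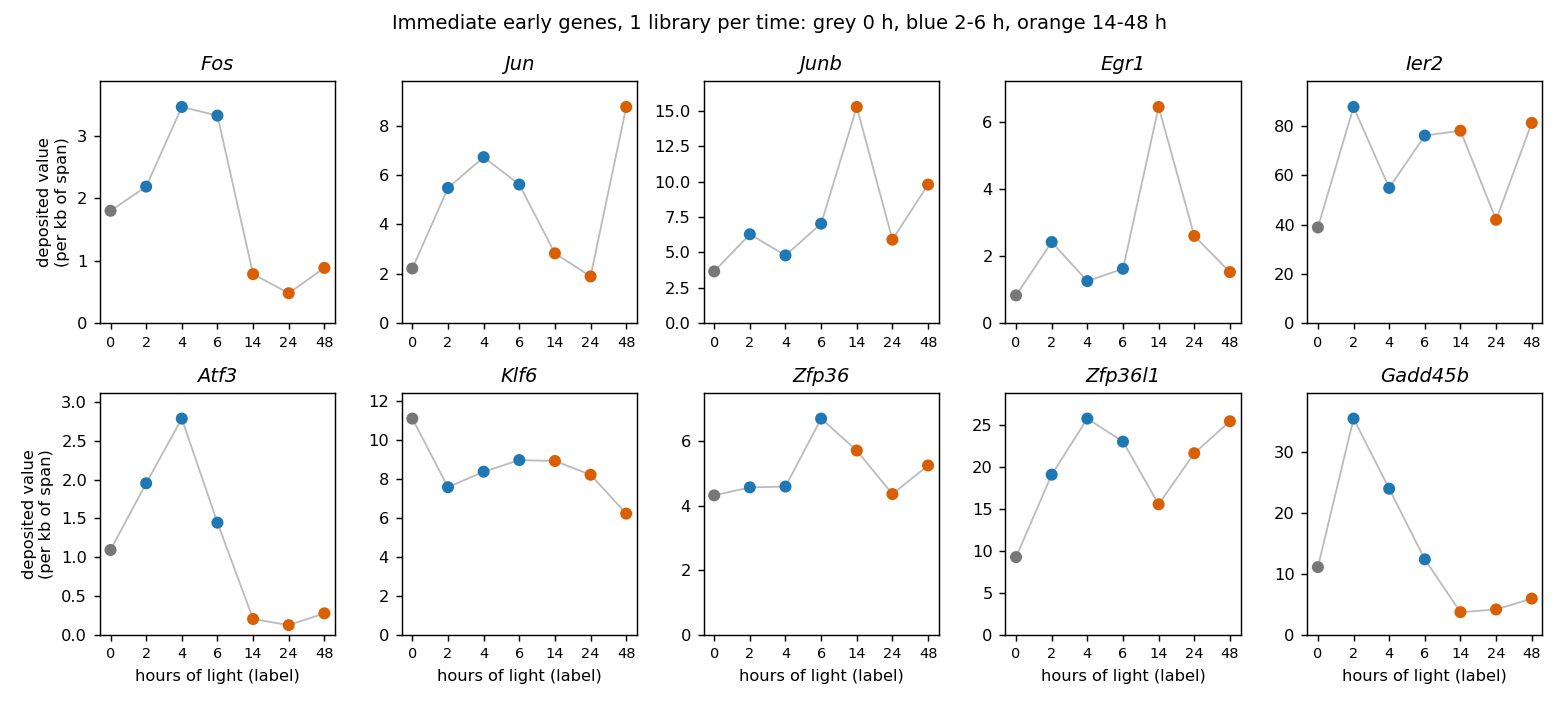
Deposited value (per kilobase of span, linear axis from 0) of each of the 10 genes against the labelled hours of light, 1 point per library. Fos, Atf3 and Gadd45b have all 3 of their 2-6 h points above all 3 of their 14-48 h points, and Egr1 and Junb are highest at 14 h.

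Fos, whose product dimerises with Jun proteins to form AP-1, stood at 1.80 at 0 h, at 2.18, 3.46 and 3.32 at 2, 4 and 6 h, then 0.783, 0.477 and 0.882 at 14, 24 and 48 h. Atf3, a stress-induced bZIP repressor, was 1.09 at 0 h, 1.95, 2.79 and 1.45 at 2, 4 and 6 h, then 0.202, 0.123 and 0.276 at 14, 24 and 48 h. Gadd45b was 11.1 at 0 h, 35.4, 23.9 and 12.3 at 2, 4 and 6 h, then 3.69, 4.14 and 5.92 at 14, 24 and 48 h. In each of these genes the 3 libraries of 2 to 6 h lay above the one labelled 0 h and the 3 of 14 to 48 h below it, with no overlap. The 95% exact binomial interval of the log2 ratio to 0 h, for counting error only, held 0 for Fos at 2 h (-0.23 to 0.78) and for Gadd45b at 6 h (-0.06 to 0.37). With each library's trend on GC content removed, Gadd45b was no longer above 0 h in all 3 early libraries. Their peaks differed: Gadd45b was highest at 2 h, Fos and Atf3 at 4 h, and Gadd45b had returned close to its 0 h value by 6 h. The lowest values rest on few reads, about 16 at 24 h for both Fos and Atf3, against about 154 for Fos and 258 for Atf3 at 6 h.

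Between the means of 2-6 h and of 14-48 h, Atf3 was 10.3-fold lower in the later period, Gadd45b 5.21-fold and Fos 4.18-fold. In a limma fit of the 6 libraries labelled 2 to 48 h over 6409 genes, all 3 fell, by 1.33 ± 0.17 (SE) for Atf3 (adjusted p = 0.0174), 2.06 ± 0.34 for Gadd45b (adjusted p = 0.0411) and 1.21 ± 0.18 for Fos (adjusted p = 0.0317) on the log2(value + 1) scale, which understates the change of genes as low as Atf3. Of all genes tested, 0.452% fell and 0.25% rose in this contrast, 0.702% in all, and 3 of the 10 members fell and 0 rose. The 3 libraries of a period are different times and not replicates, so any change within a period is part of the spread. By order alone, 3 of 10 members, the same genes, had every 2-6 h library above every 14-48 h library, as had 7.49% of all genes. The reverse order held for 0 of 10 members and 7.79% of all genes.

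The differences stayed negative when a library was left out, while the calls were not all kept. That of Gadd45b ran from -1.73 (without 2 h) to -2.45 (without 6 h). Without the 4 h library the difference was -1.12 for Fos and -2 for Gadd45b, and without the 24 h library -1.11 for Fos, -1.28 for Atf3 and -2.01 for Gadd45b, with 0 members called in either fit and 0.0312% and 0.0465% of all genes. Without the 2 h library only Fos was called, without the 14 h library only Atf3, and without the library labelled 48 h all 3. The share of all genes called was 0.404%, 0.577% and 0.94% in these fits. Without the 2 h or the 4 h library Atf3 fell under the mean value of 1 and was not tested. A limma-voom fit on reads recovered from the values, over 13434 genes, gave log2 differences of -3.28 ± 0.41 (SE) for Atf3 (adjusted p = 0.0128), -2.20 ± 0.42 for Gadd45b (adjusted p = 0.0354) and -2.05 ± 0.38 for Fos (adjusted p = 0.0348). That fit called 3 of 10 members lower, against 0.447% of all genes, and 0 higher, against 0.774%.

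**Figure D2:**
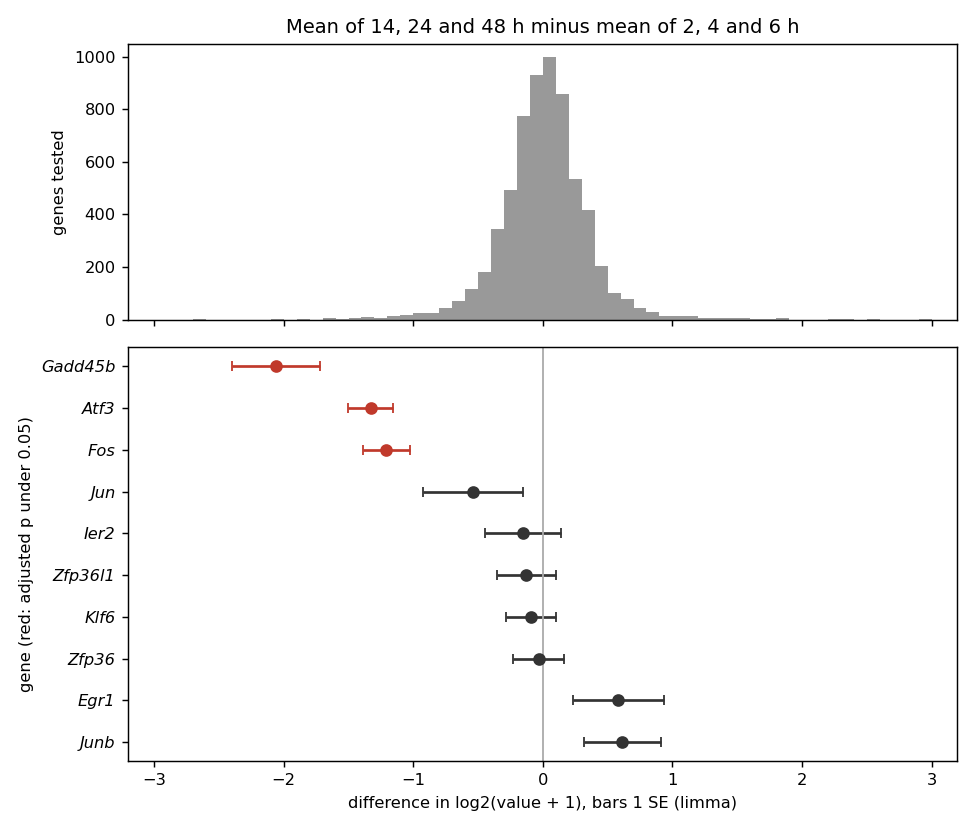
Upper panel, number of tested genes at each difference between the mean log2(value + 1) of 14, 24 and 48 h and that of 2, 4 and 6 h. Lower panel, the same difference for the 10 genes with 1 SE from limma, where Gadd45b (-2.06), Atf3 (-1.33) and Fos (-1.21) are the 3 with an adjusted p under 0.05.

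The promoters of these 3 genes are shown because they moved together. Each line is the 250 bases before the RefSeq start site, 5′ to 3′ along the gene (GRCm38.p6, while the values were made on mm9), at chr12:85473640-85473889 (plus strand), chr1:191183334-191183583 (minus strand) and chr10:80929841-80930090 (plus strand). Capitals mark a TATA box (TATAAA, sense strand) or a CRE half-site, the core of the sequence that CREB and ATF proteins bind (TGACG, or CGTCA where it lies on the other strand).
Fos: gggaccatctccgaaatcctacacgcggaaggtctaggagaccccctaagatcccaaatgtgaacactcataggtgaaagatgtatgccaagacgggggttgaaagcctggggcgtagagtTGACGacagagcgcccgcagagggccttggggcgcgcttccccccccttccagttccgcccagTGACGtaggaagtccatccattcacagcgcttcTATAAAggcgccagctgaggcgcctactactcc
Atf3: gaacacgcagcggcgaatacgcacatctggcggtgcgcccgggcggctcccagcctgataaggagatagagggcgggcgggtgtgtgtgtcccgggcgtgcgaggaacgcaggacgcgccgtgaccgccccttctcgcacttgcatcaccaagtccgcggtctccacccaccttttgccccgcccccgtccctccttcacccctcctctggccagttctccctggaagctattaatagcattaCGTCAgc
Gadd45b: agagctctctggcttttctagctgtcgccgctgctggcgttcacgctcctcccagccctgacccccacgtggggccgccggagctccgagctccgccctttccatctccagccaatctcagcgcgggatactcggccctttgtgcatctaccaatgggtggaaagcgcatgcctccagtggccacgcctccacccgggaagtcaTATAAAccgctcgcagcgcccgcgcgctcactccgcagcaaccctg
The Fos window holds half-sites that begin 129 and 66 bases before the start and a TATA box that begins 33 bases before it. That of Atf3 holds a half-site that begins 7 bases before the start and no TATAAA, and that of Gadd45b a TATA box at 46 bases and no half-site. The half-site was searched after no member was found to hold the full CRE. Of 8 members with a window in the table, 3 hold a half-site (Fos, Junb and Atf3) against 33.2% of 5261 tested genes. A TATA box was in 3 (Fos, Zfp36l1 and Gadd45b) against 4.92%. The CArG box that serum response factor binds was in 1 (Zfp36) against 1.52%. The full CRE TGACGTCA, the AP-1 site TGACTCA and the octamer ATGCAAAT that POU factors such as Brn2 bind were each in 0, against 3.59%, 3.36% and 1.6% of tested genes, with both strands searched. These are matches of set letters in windows of 250 bases, so a site with other letters or further upstream would be missed. A count of 0 does not mean that a gene lacks such a site. Ier2 and Egr1 were not searched.

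Egr1, a zinc-finger factor induced through ERK and serum response factor, was 0.825 at 0 h, 2.42, 1.25 and 1.62 at 2, 4 and 6 h, then 6.45, 2.60 and 1.52 at 14, 24 and 48 h. The 14 h library was the highest and 0 h the lowest, 7.82-fold apart, from about 220 and 46 reads. Junb, an AP-1 subunit that often opposes Jun, had its highest value in the same library: 3.65 at 0 h, 6.28, 4.79 and 7.03 at 2, 4 and 6 h, then 15.3, 5.90 and 9.80 at 14, 24 and 48 h. The log2 ratio of the 14 h value to the 0 h value was 2.97 for Egr1 (95% exact binomial interval 2.50 to 3.46) and 2.07 for Junb (1.73 to 2.42), intervals that cover counting error only. On the log2(value + 1) scale the 14 h ratio was 2.03 for Egr1 and 1.81 for Junb, and with the GC trend removed 1.85 and 1.20. In the 2 neighbouring libraries neither was as high, so the peak is 1 library with no replicate check. Brn2 was also highest in this library, and its part in the peak was not tested. Neither gene passed between periods in the limma fit (late minus early 0.58 ± 0.35 SE, adjusted p = 0.593 for Egr1, and 0.61 ± 0.30, adjusted p = 0.497 for Junb).

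Jun, the main partner of Fos, did not follow it after 24 h. Its values were 2.21 at 0 h, 5.48, 6.73 and 5.62 at 2, 4 and 6 h, then 2.83, 1.89 and 8.77 at 14, 24 and 48 h. From 2 to 24 h it ran as Fos did, high and then low, but the 48 h library was its highest of all, from about 451 reads. Its late minus early difference was -0.54 ± 0.38 (SE, adjusted p = 0.659 by limma), and -1.06 without the 48 h library (adjusted p = 0.0493). The span of Jun shares 689 bases with the antisense gene Junos, and the sources used here do not say whether reads were counted by strand.

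Ier2, a nuclear protein gene and the most abundant of the members, was 38.8 at 0 h, 87.8, 54.9 and 76.1 at 2, 4 and 6 h, then 78.1, 41.9 and 81.3 at 14, 24 and 48 h. It was about as low at 24 h as at 0 h, where the log2 ratio was 0.11 with a counting interval of -0.04 to 0.26 that holds 0. At 2 h it was 2.26-fold above 0 h, its largest ratio.

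Zfp36 and Zfp36l1 encode the CCCH zinc-finger proteins TTP and BRF1, which bind AU-rich elements and hasten the decay of the messages that carry them. Zfp36 was the steadiest member: 4.32 at 0 h, 4.57, 4.59 and 6.70 at 2, 4 and 6 h, then 5.71, 4.36 and 5.24 at 14, 24 and 48 h, a range of 1.55-fold. Its 2, 4 and 6 h libraries were no longer all above 0 h with the GC trend removed. Zfp36l1 was 9.27 at 0 h, 19.1, 25.8 and 23.1 at 2, 4 and 6 h, then 15.6, 21.7 and 25.5 at 14, 24 and 48 h. Every later library of Zfp36l1 was above 0 h, with the lowest of them at 14 h, where Egr1 and Junb were highest. The opposite-strand genes Gm44710 and Gm26669 overlap the spans of Zfp36 and Zfp36l1 by 1274 and 4967 bases, so some of their reads may be among these.

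Klf6, a Krüppel-like factor gene, was highest in the library labelled 0 h: 11.1 at 0 h, 7.56, 8.36 and 8.95 at 2, 4 and 6 h, then 8.91, 8.20 and 6.21 at 14, 24 and 48 h. All 6 later libraries were below 0 h, an order that did not hold with the GC trend removed. The 48 h library was below by a log2 ratio of values of -0.84 (-0.96 to -0.72, counting error only). Its fitted trend over the 7 libraries did not pass (-0.49 ± 0.26 SE, adjusted p = 0.29 by limma). It was -0.30 without the library labelled 0 h and also -0.30 without that labelled 48 h.

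Against the 0 h library, 9 of 10 members were higher in each of the 2, 4 and 6 h libraries, all but Klf6, and 26.5% of all genes tested were. At 14, 24 and 48 h, 4 of 10 (Fos, Atf3, Klf6 and Gadd45b) were below 0 h in each, against 29.4% of all genes. Above 0 h in all 6 later libraries were 5 of 10 (Junb, Egr1, Ier2, Zfp36 and Zfp36l1), against 17.5%. Some ratios behind these counts had a 95% exact binomial interval, for counting error only, that held 0. They were those of Fos and Zfp36 at 2 h, Zfp36, Junb and Egr1 at 4 h, Gadd45b at 6 h, and Ier2 and Zfp36 at 24 h. These counts share 1 control library, and the 0 h library has no replicate, so they carry no test. With the GC trend removed they became 7, 3 and 3 of 10, against 19.6%, 35.9% and 11.3% of all genes.

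On the scale of log2(value + 1), the ratio of Gadd45b to 0 h was 1.59 at 2 h and -1.36 at 14 h, and those of Zfp36l1 ran from 0.69 to 1.38. With the GC trend removed the Gadd45b ratio at 6 h turned from 0.14 to -0.31. Ier2 had ratios of 1.16 at 2 h and 1.05 at 48 h, which became 0.96 and 0.70 with quantile normalization and 0.91 and 0.14 with the GC trend removed. The 48 h ratio of Junb, 1.21, became 0.24 with that trend removed, and that of Jun, 1.60, became 1.07.

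**Figure D3:**
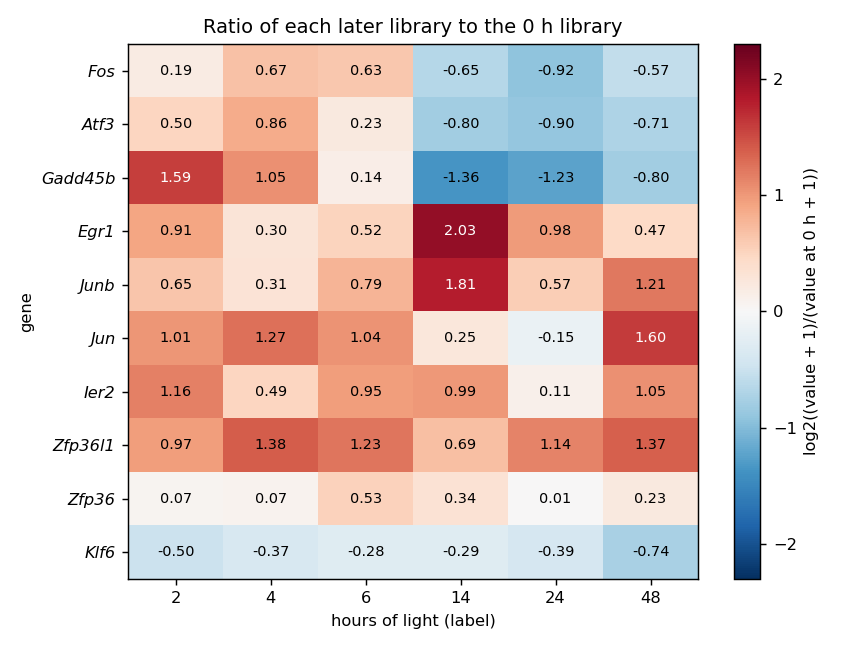
Log2 ratio of value + 1 in each later library to the 0 h library, genes in rows and labelled hours in columns, red above and blue below 0 h. Fos, Atf3 and Gadd45b turn from positive at 2-6 h to negative at 14-48 h, Egr1 is highest at 14 h (2.03), and Klf6 is negative throughout, an order that, like the positive sign of Gadd45b at 2-6 h, does not hold in full with the GC trend removed.

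A straight trend over all 7 libraries, with log2 of hours + 1 as the time axis, called 0 of 10 members in limma, against 0.359% of all genes (0.296% higher and 0.0624% lower). On reads it also called 0 of 10, against 3.09%. The limma fit on values called 0 of 10 without the library labelled 0 h or that labelled 48 h, against 1.24% and 0.0313% of all genes. At an unadjusted p under 0.05 in the limma fit of all 7 libraries there were 5 of 10, against 21.5% of all genes: Gadd45b, Atf3 and Fos with negative and Junb and Zfp36l1 with positive fitted changes. Fitted changes from 0 to 48 h ran from -2.15 ± 0.82 (SE) for Gadd45b (adjusted p = 0.178) to 1.17 ± 0.46 for Junb (adjusted p = 0.187). Without the library labelled 0 h the trend was -3.94 for Gadd45b and -2.44 for Atf3 (adjusted p = 0.0508 each by limma). It was then -2.02 for Fos, 0.93 for Junb and 0.14 for Zfp36l1, which had 0.94 with that library. Without the library labelled 48 h the trend was -2.51 for Gadd45b and 1.29 for Junb. With the GC trend removed that of Junb was 0.41. The member median was 0.31 in the limma fit of all 7 libraries, with 6 positive and 4 negative changes, beside 0.01 over all genes. In the fit of periods it was -0.14 beside 0.01, with 2 positive and 8 negative.

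Among the members, pairs with the most similar patterns over the 7 libraries were Fos with Atf3 and Atf3 with Gadd45b (Pearson r of log2(value + 1) = 0.94 each), Fos with Gadd45b (0.82) and Junb with Egr1 (0.81). The coefficient was -0.52 for Fos with Egr1 and -0.76, the lowest of all pairs, for Klf6 with Zfp36l1. These are descriptions over 7 points that share libraries and depth. Among 2416 other genes with a mean of at least 5, those most like Fos were the mRNA export factor gene Nxf1 (r = 0.977), the heme oxygenase gene Hmox1 (0.966) and Tsc22d1 (0.959). Hmox1 was 58.0 at 0 h, 40.2, 139 and 150 at 2, 4 and 6 h, then 18.9, 11.7 and 12.5 at 14, 24 and 48 h. Those most like Egr1 were Lars2 (0.962) and the homeobox gene Pbx2 (0.956), of which Pbx2 was 29.5 at 14 h and between 16.0 and 19.3 in the others. The mean standardised pattern of the 10 members, lowest at 24 h (-0.65) and 0 h (-0.58) and highest at 6 h (0.53), was most like Mgat4b (0.983), Nfkbia, which encodes the NF-kappaB inhibitor IkappaBalpha (0.945), Mpv17l2 (0.888), Zfp593 (0.870) and Arpc1b (0.864).

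Levels of different genes were compared per kilobase of exon, obtained by multiplying a value by span over transcript length. This takes all reads to lie in exons, which was not tested. It raises Atf3 most (span 13045 and transcript 1984 bases) and leaves Jun, Junb and Ier2 unchanged, so the place of Atf3 depends on it. On that scale the mean over 7 libraries ran from 65.6 for Ier2, 35.2 for Zfp36l1, 22.9 for Gadd45b and 17.9 for Klf6 through 7.53 for Junb, 7.40 for Atf3, 6.30 for Zfp36 and 4.79 for Jun to 2.96 for Fos and 2.94 for Egr1. Ier2 was above Zfp36l1, and Klf6 above Junb, in 7 of 7 libraries. Neighbours that changed places between libraries included Gadd45b and Klf6 (3 of 7 libraries with Gadd45b higher), Junb and Atf3 (3 of 7 with Junb higher), and Fos and Egr1 (4 of 7 with Fos higher). The order also moved with time: on the exon scale Atf3 was 18.3 at 4 h, above Junb (4.79), and 1.33 at 14 h, below Junb (15.3).

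AU-rich elements mark short-lived messages, and the nonamer TTATTTATT is the form that TTP family proteins bind. In the 3′ UTRs of the members' GENCODE transcripts it was found in 3 of 10, against 6.28% of 6340 tested genes with a 3′ UTR. They are shown with 10 bases on either side and the nonamer in capitals, since one holder is Fos and the others encode the binding proteins themselves.
Fos: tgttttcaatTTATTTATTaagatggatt
Zfp36: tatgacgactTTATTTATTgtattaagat
Zfp36l1: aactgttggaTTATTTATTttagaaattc
The share of genes that hold it rises with length: among tested genes with a 3′ UTR of 0.8 to 1.25 times the length, the nonamer was in 4.75% for Fos, 3.96% for Zfp36 and 9.23% for Zfp36l1. The pentamer ATTTA occurred 4 times in Fos, 3 times in Atf3 and 0 times in Gadd45b, so the 3 genes that fell together do not share it.

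Of the other AP-1 subunits, 11 of 12 were matched in the table and 2 passed the mean filter, Jund (23.9 at 0 h and 30.9 to 48.0 in the later libraries) and Mafg (5.63 at 0 h and 2.40 to 6.77). Neither was called in either limma fit, and Atf7 was not matched. On reads, where lower genes could be tested, 1 fell between periods, the Fos relative Fosl1 (log2 difference -3.80, adjusted p = 0.0282 by limma-voom), against 0.447% of all genes tested on reads. The difference was -3.30 without the library labelled 48 h (adjusted p = 0.04 by limma-voom), and -3.58, -3.54 and -3.61 without 4, 6 or 24 h, where it was not called (0.106, 0.0647 and 0.128). Its values were 0.326 at 0 h, 0.494, 1.41 and 1.34 at 2, 4 and 6 h, then 0.200, 0.0488 and 0.0376 at 14, 24 and 48 h, with about 154 reads in the 6 h library but 5 in the 48 h one. Fosb was 0.256 at 0 h, 0.572, 0.560 and 0.308 at 2, 4 and 6 h, then 0.105, 0.0820 and 0.0843 at 14, 24 and 48 h. Its difference missed the threshold (-2.25, adjusted p = 0.0516 by limma-voom). Fosl1 and Fosb lie outside the rule for named genes and were chosen after their values were seen.

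In the EGR and NR4A list 1 of 8 genes passed the mean filter, Nr4a1, an orphan nuclear receptor gene, with 2.71 at 0 h, 9.30, 6.32 and 5.89 at 2, 4 and 6 h, then 2.74, 3.05 and 5.73 at 14, 24 and 48 h (late minus early -0.79, adjusted p = 0.3 by limma). Its 2-6 h libraries were all above its 14-48 h libraries, as in 7.49% of all genes. The list of serum response factor, ternary complex and CREB genes had 3 of 9 tested and 0 called. Of 8 tested KLF genes 0 were called, among them Klf16 (3.29 at 0 h, 8.14 at 2 h), Klf10 (42.5 at 2 h, 18.2 at 48 h) and Klf4 (64.9 at 6 h, 24.9 at 24 h).

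The relatives of Zfp36, Gadd45, Ier and Btg had 8 of 9 tested, of which 1 rose in the trend, against 0.296% of all genes, and 0 were called between periods. The riser was Gadd45g, listed at 0 at 0 h and at 0.511, 0.158, 0.244, 1.16, 3.29 and 5.71 in order of time (adjusted p = 0.0413 by limma), from about 2 to 7 reads at 2-6 h and 165 at 48 h, the opposite direction to Gadd45b. Its fitted trend was 2.75, and 2.88, 2.66 and 2.59 without the 2, 4 or 24 h library, where it was not called (adjusted p = 0.0602, 0.0665 and 0.0525 by limma). It was 3.52 without the library labelled 0 h (adjusted p = 0.0222) and 2.10 with the GC trend removed (0.0951), and without the library labelled 48 h the gene was too low to be tested. On reads it was called (adjusted p = 0.00313 by limma-voom). Gadd45a, the p53-induced relative, was 17.3 at 0 h, 14.0, 19.5 and 18.8 at 2, 4 and 6 h, then 7.22, 9.95 and 13.7 at 14, 24 and 48 h, with no call (adjusted p = 0.308 by limma). In 2 of the 8 tested relatives, Gadd45a and Btg1, all early libraries lay above all late ones, against 7.49% of all genes. The reverse order held in 1, Gadd45g, against 7.79%. Btg1, an antiproliferative gene, ran from 15.1 at 2 h to 3.88 at 14 h (-1.01, adjusted p = 0.152), and Ier5l from 6.64 at 24 h to 48.1 at 48 h.

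Among MAP kinase phosphatases and ERK feedback genes 5 of 9 were tested and 0 called. Dusp6, the ERK phosphatase gene, was 2.38 at 0 h and 6.13 to 8.57 in the later libraries, and Spry2 was highest at 14 h (25.6, against 9.70 to 13.2 elsewhere), the library in which Egr1 and Junb peaked. Dusp1 was 7.77 at 0 h, 15.4, 13.3 and 13.6 at 2, 4 and 6 h, then 5.15, 5.44 and 13.3 at 14, 24 and 48 h.

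Of 16 tested genes in the list of other serum-induced early genes 1 fell between periods, against 0.452% of all genes, and 0 were called in the trend. Plk2, a polo-like kinase gene, was 24.1 at 0 h, 17.1, 36.3 and 24.9 at 2, 4 and 6 h, then 5.46, 6.70 and 9.52 at 14, 24 and 48 h (late minus early -1.69, adjusted p = 0.0439 by limma). Without the 4, 6, 14 or 24 h library the difference was -1.42, -1.69, -1.53 and -1.65 and was not called (adjusted p = 0.216, 0.0698, 0.111 and 0.141 by limma). Without the library labelled 48 h it was -1.88 (adjusted p = 0.027). Socs3, a feedback inhibitor of the LIF receptor pathway, ran from 15.1 at 0 h to 51.3 at 14 h and 56.0 at 48 h, with a trend that missed the threshold (adjusted p = 0.085 by limma). Mcl1 and Ccn1 had negative trends that did not pass (adjusted p = 0.0911 and 0.277). Heat shock genes, which also answer cell stress, had 9 of 9 tested and 0 called. Their summed value was 3684 at 0 h, 2533 to 3038 at 2-6 h and 1975 to 2820 at 14-48 h. Of the 0 h sum Hspa8 was 2476 and Hsp90aa1 999, so it mostly follows these genes. Hspa8, Hsp90aa1, Hsph1 and Dnajb1 were highest at 0 h, Hspd1 at 2 h, Hspe1 at 4 h and Dnaja1 at 24 h. Hspa1a and Hspa1b were highest at 6 h (4.78 and 5.83, against 2.72 and 5.07 at 0 h). Those not called and without a trend given here lie outside the rule for named genes. Hspe1, Hsp90aa1 and Hsph1 had fitted trends of -1.44, -1.42 and -0.90 that did not pass, though on reads Hsp90aa1 did (-1.42, adjusted p = 0.031 by limma-voom). On reads its trend was -1.52 without the library labelled 0 h (0.0896), -1.39 without 4 h (0.0597) and -0.99 without that labelled 48 h (0.487).

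**Figure D4:**
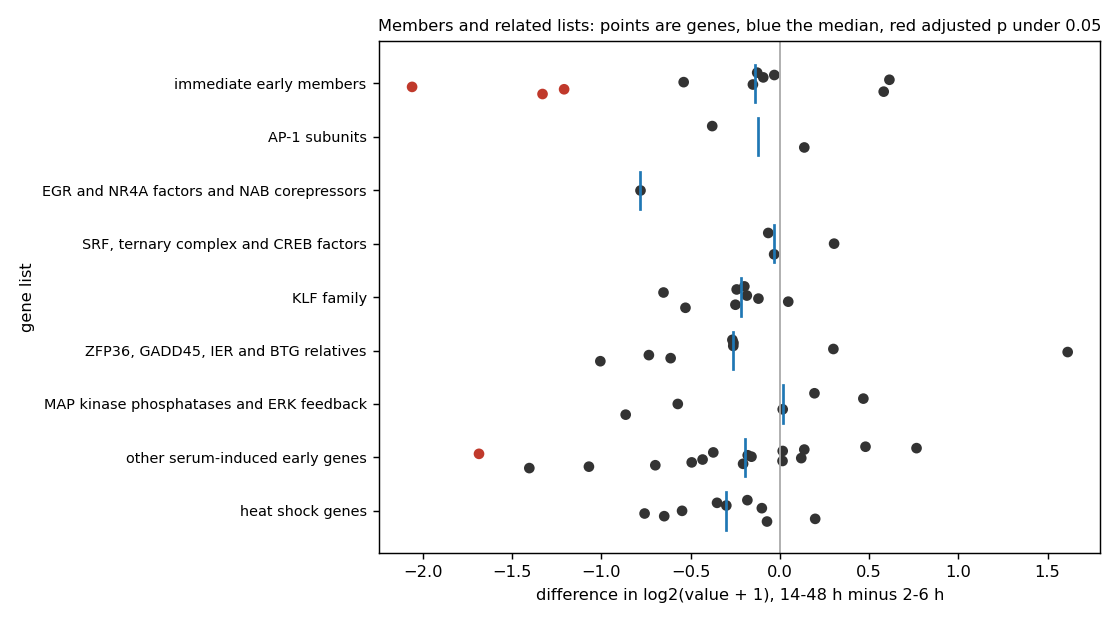
Difference in mean log2(value + 1) between 14-48 h and 2-6 h for each tested gene of the 10 members and of 8 related lists, with the list median as a blue line. Red points have an adjusted p under 0.05 and are Fos, Atf3 and Gadd45b among the members and Plk2 among the other serum-induced early genes.

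The cells carried the markers of their label. Of 8 embryonic stem cell markers 8 were tested and 0 called in either limma fit, against 0.359% of all genes in the trend and 0.702% between periods. On reads 1 of 8, Dppa5a, fell in the trend (-1.25, adjusted p = 0.0427 by limma-voom), against 112 of 13434 genes. The summed value of the 8 was 1365 to 1741 at 2-6 h and 1008 to 1280 at 14-48 h, of which Dppa5a was 870 to 1199 and 491 to 885. Pou5f1 was 204 to 234 and 176 to 235, Sox2 66.8 to 77.5 and 69.9 to 97.0, and Nanog 51.6 to 81.6 and 33.4 to 67.3, so these overlapped between periods. In 1 marker, Zfp42, all early libraries (45.7 to 58.3) lay above all late ones (34.3 to 40.8), as in 7.49% of all genes. Late minus early was negative in 7 of the 8 markers (median -0.35), and in 3066 of 6409 genes tested. Neuron markers, 4 of 8 tested, summed to 19.8 to 23.2 and 36.8 to 106. Of them Neurod1, a neurogenic bHLH factor gene, rose in both limma fits (adjusted p = 0.0413 in the trend and 0.0317 between periods) and made up 60.7 of the 76.0 at 24 h. On reads 3 of 6 tested rose in the trend, against 303 of 13434 genes. These were Neurod1, Map2 and Nhlh1 (adjusted p = 0.00793, 0.00793 and 0.031 by limma-voom). Fibroblast and feeder markers, 0 of 8 tested, summed to 0.895 to 1.54 and 0.473 to 3.36. Most of the early sum was Thy1 (0.834, 0.902 and 1.39 at 2, 4 and 6 h, with about 99 reads at 6 h). Pdgfrb had about 8 to 50 reads in each library and Col1a1 0 to 15. Postn and Dcn had at most 7 and 6. Lum was at 0 in all libraries but 48 h and Col3a1 in 5 of 7. Col1a2 alone went from 0.0110 to 0.0224 at 2-6 h to 2.16 at 48 h, and rose in the trend on reads (adjusted p = 0.00825 by limma-voom). Primitive endoderm markers, 1 of 8 tested, summed to 1.16 to 1.77 and 1.48 to 6.59, of which Foxa2 was 4.62 at 48 h. On reads 2 of 6 tested, Foxa2 and Lamb1, rose in the trend (adjusted p = 0.006 and 0.0278 by limma-voom). Mesoderm markers, 0 of 7 tested, summed to 1.87 to 2.33 and 1.27 to 1.82. For the marker calls no fit without a library is given. The part of the marker values in the fall of Fos, Atf3 and Gadd45b was not tested. In bulk RNA, fewer cells with a message and less of it per cell cannot be told apart.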

How the data were processed

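Libraries came from RNeasy RNA by the Lexogen SENSE method, per the labels' protocols. Bowtie2 and the build mm9 are named for the alignment in the submitters' processing notes. The sources used here give neither the counting method, nor its use of strand, nor the unit of the deposited values. Multiplied by genomic span and a library factor, 80.1% to 81.3% of the deposited values worth 1.5 to 20 reads came within 0.1 of a whole number (20% by chance), against 21.7% to 22.7% with exon length, so they were read as per kilobase of span. Spans came from GENCODE M21 (GRCm38), and read numbers are approximate. Accessions gave symbols for 26241 rows, and the row of highest mean per gene was used.

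Log2(value + 1) was fitted with limma 3.58.1 (mean-variance trend) in R 4.3.3 over genes of mean at least 1, with 5 residual degrees of freedom for the trend and 4 for the periods, Benjamini-Hochberg adjustment over all genes and calls under 0.05. The scripts were tested on simulated data. Named genes were the members, every called gene of a related list, up to 3 others of each list (the largest fitted trends among means of 5 or more), and the nearest patterns, of which 1 is not reported here. Members and lists were chosen with earlier results of these data known. Alternatives were other normalizations, filters, pseudocounts, time scales, GC correction, row choice, reads, and each library left out. The alternatives for the counts against 0 h, and leaving libraries out of the fits on reads, were chosen after seeing the data. A planned count of 2-fold ratios to 0 h is not reported, since its filter let some genes in through a high library alone.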

Additional observations from a re-analysis of the deposited data

How the results depend on the processing

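In the trend fit 0 members were called under each of 11 alternative settings and without each library. These fits tested 10 members, but 6 with a mean of at least 5 and 9 without the 2 h or the 4 h library. Of all genes, 0.0155% (without 24 h) to 1.24% (without 0 h) were called in the trend when a library was left out. Between 2-6 h and 14-48 h 3 members were called with quantile normalization, median-of-ratios scaling, pseudocount 0.1, the GC trend removed, the mean over rows or recovered reads. The number was 0 with no filter on low values (17838 genes tested), 1 with a mean of at least 5 (Fos and Atf3 then go untested) and 1 with pseudocount 5, and it ranged from 0 to 4 when each library was left out (4 without 48 h, with Jun). Fos, Atf3 and Gadd45b kept a negative difference in every such fit that tested them. Gadd45g kept a positive trend and Plk2 a negative difference in the same way, but neither was called with no filter or with pseudocount 5, nor Gadd45g with quantile normalization (adjusted p = 0.0532 by limma). With the GC trend removed 3 members in place of 5 were above 0 h in all 6 later libraries (Junb, Egr1 and Zfp36l1). Over all genes the share called ran from 0% (no filter, pseudocount 5 or the GC trend removed) to 3.09% (reads) beside 0.359% in the trend, and from 0.0168% (no filter) to 1.87% (GC trend removed) beside 0.702% between periods.

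Signs changed only for members that were not called. With the GC trend removed the fitted trend was -0.25 for Ier2, 0.01 for Klf6 and -0.12 for Zfp36, and the late minus early difference of Klf6 was 0.08. Leaving out 1 library at a time, the trend ranged from -0.39 to 1.04 for Jun (negative without the library labelled 0 h, -0.36, or 48 h) and from -0.30 to 0.86 for Ier2 (negative without 0 h). In the same way late minus early ranged from -0.34 to 0.15 for Ier2 (positive without 24 h), -0.19 to 0.04 for Klf6 (without 48 h), -0.11 to 0.12 for Zfp36 (without 6 h, and 0.06 without 24 h) and -0.28 to 0.06 for Zfp36l1 (without 14 h). The cause was not tested. No paired analysis was possible because each time point has 1 library. Depth limits the lowest values, with about 16 reads for Fos and for Atf3 at 24 h.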
